A study of Mus musculus with 6 samples.

Results

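Kazal-type serine protease inhibitors of the Spink family were followed in the prostates of hormone-treated and control mice. The 7 genes Spink1, Spink2, Spink5, Spink8, Spink10, Spink11 and Spink12 were taken by their symbols from the 34745 genes of the deposited table, and 4 of them had enough reads to be tested. RNA was sequenced from the prostates of 6 male C57BL/6 mice that were young adults at the start, 1 library per mouse. In the T + E2 group 3 mice carried a slow-release pellet of testosterone and oestradiol under the skin for 12 weeks, a treatment used as a model of benign prostatic hyperplasia. In the CON group 3 mice had their skin cut and closed and received no pellet. No transgene or mutation was involved, both hormones were given together so that their separate parts cannot be told apart, and the libraries hold all cell types of the sampled tissue.

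A Kazal domain is a small fold held together by 6 cysteines paired in disulphide bonds, and it blocks a serine protease by offering it an exposed loop that is bound tightly like a substrate but hardly cut. Spink genes encode secreted proteins with 1 or more such domains, and they are known for holding trypsin in check in the pancreas, kallikrein-related proteases in the skin, and acrosin and other sperm or seminal proteases in the male tract. Prostate and seminal vesicle fluid contain several of these inhibitors, some of which bind to sperm.

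The coding stretch from the first to the last cysteine of the Kazal domain is shown for Spink8, which rose in the T + E2 group, and for Spink2, which was close to 0 in every mouse, because the pair shows the usual cysteine spacing and the departure from it in Spink8. Both were read 5′ to 3′ along the coding strand of the spliced GENCODE M21 transcripts on build GRCm38 (Spink8-202, codons 44 to 96, 159 bases, and Spink2-201, codons 38 to 86, 147 bases), and capitals mark the 6 cysteine codons.
Spink2: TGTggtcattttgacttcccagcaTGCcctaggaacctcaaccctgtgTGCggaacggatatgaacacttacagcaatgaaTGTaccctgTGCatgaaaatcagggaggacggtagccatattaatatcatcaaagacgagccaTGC
Spink8: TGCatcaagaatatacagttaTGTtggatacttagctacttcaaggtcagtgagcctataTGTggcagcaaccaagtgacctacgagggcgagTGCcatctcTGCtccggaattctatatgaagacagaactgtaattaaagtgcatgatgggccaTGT
Counted in residues between neighbouring cysteines, the gaps were 7, 7, 10, 2 and 17 in Spink2 and 6, 12, 10, 2 and 17 in Spink8. The second gap, which in this fold holds the loop that meets the protease, was 7 residues in Spink1, Spink2, Spink11 and Spink12 and 12 residues in Spink8.

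Most of the proteins are a single domain. The annotated coding sequences gave 80 residues for Spink1, 86 for Spink2, 105 for Spink8, 114 for Spink11 and 105 for Spink12, while that of Spink10, with 162 residues, held the cysteine pattern 2 times. Spink5 stood apart with 1017 residues, 61 cysteines and 32 exons. In it the 6-cysteine spacing occurred 2 times and a shorter 4-cysteine form (gaps of 13, 18 and 2 residues) 12 times, so that 1 Spink5 transcript encodes many inhibitory units.

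Reads counted on genes totalled 14819273 to 16555549 per mouse, so that 3 counts, the one-sided 95% limit that a count of 0 allows by counting error, corresponded to 0.182 to 0.207 CPM (counts scaled to a library of the same size in every mouse). All CPM values below were scaled by TMM, which corrects for differences in library composition. Markers of prostate luminal epithelium were detected in every mouse for 9 of 9 listed genes, with a summed level of 37400 to 50900 CPM in the CON group and 13000 to 15800 CPM in the T + E2 group, in which probasin (Pbsn) fell by 3.29 and Tgm4 by 2.91 on the log2 scale and Msmb, a secreted prostate protein, rose by 1.10. Transcripts of the seminal vesicle, a gland that lies against the prostate, set 1 library of each group apart. The summed level of 8 seminal vesicle genes was 10300 CPM in CON replicate 2 and 642 CPM in T + E2 replicate 2, against 0.628 and 4.1 CPM in the other CON mice and 1.67 and 4.01 CPM in the other T + E2 mice. These libraries differed in which of the genes they held. Svs5 and Svs4 made up most of the sum in CON replicate 2 (5030 and 4580 CPM, against 109 and 6.63 CPM in T + E2 replicate 2), whereas Svs2 made up most of it in T + E2 replicate 2 (483 CPM, against 221 CPM in CON replicate 2). For this reason the results below are also given without both of these libraries.

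Spink5, Spink8 and Spink11 rose in the T + E2 group, by 4.06-fold, 2.22-fold and 146-fold. Spink1, the most abundant of the family per gene length, was 1.65-fold higher, with an adjusted p under the threshold but a change smaller than the 2-fold that a call required. Spink2, Spink10 and Spink12 had at most 4 counts in any mouse. Thus 3 of the 4 tested genes were called higher and 0 lower (edgeR quasi-likelihood test, Benjamini-Hochberg adjusted p below 0.05 with a change of more than 1 on the log2 scale in either direction), whereas over all 15580 tested genes 7.64% were called, 4.27% higher and 3.38% lower in the T + E2 group. The adjusted p alone was under 0.05 for 4 of 4, against 19.6% of all tested genes, and the 3 T + E2 mice lay above the 3 CON mice for 4 of 4, against 20.1%. The median log2 fold change was 1.59 over the 4 genes and -0.00207 over all tested genes. The genes followed here were chosen with earlier results of these data known, so their shares are a description and no test of the family. Spinkl, the only tested Spink gene outside the list, was not called in the fit of all mice. Spink11 had enough reads to be tested only through the T + E2 group, so a call could only put it higher. It is included in these counts and in the median. In whole tissue more cells of a type and more RNA per cell cannot be told apart, and the p-values rest on the spread among 3 mice per group.

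**Figure D1:**
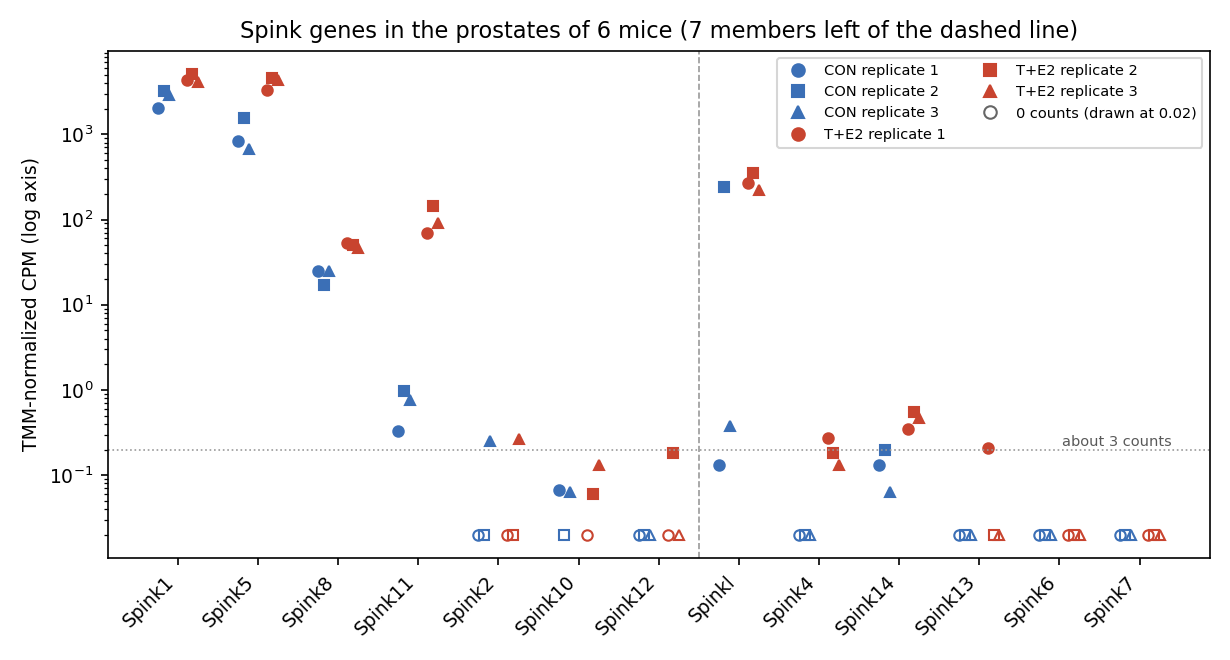
TMM-normalized CPM (log axis) of every Spink gene in each of the 6 mice, with CON in blue, T+E2 in red, the replicate number as marker shape, open symbols for 0 counts and a dotted line near the level of 3 counts. The 7 genes followed here are left of the dashed line. For Spink1, Spink5, Spink8 and Spink11 the red points lie above the blue ones, with the widest gap in Spink11, and Spinkl has 1 CON mouse among the T+E2 mice.

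Spink1 encodes the pancreatic secretory trypsin inhibitor, which in the mouse is also secreted by the male accessory glands and binds to sperm. The gene (ENSMUSG00000024503) lies on chromosome 18 at 43728069 to 43737237, minus strand, in the coordinates of the deposited table. Its level was 2052, 3208 and 2930 CPM in CON replicates 1 to 3 and 4303, 5127 and 4069 CPM in T + E2 replicates 1 to 3. The groups did not overlap, but the gap was narrow, with the lowest T + E2 mouse 1.27 times the highest CON mouse. The means were 2730 ± 603.2 and 4500 ± 555.5 CPM (SD, n = 3 each), a log2 fold change of 0.72 with a standard error of 0.18 and an adjusted p of 0.0252 (edgeR). Without both replicates numbered 2 the log2 fold change was 0.75 and the adjusted p 0.0869. Leaving out single mice moved the adjusted p between 0.0246 and 0.0952, over 0.05 without CON replicate 3 (0.0563), T + E2 replicate 1 (0.0502) or T + E2 replicate 2 (0.0952).

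Per length, as the deposited FPKM give it, Spink1 was among the most abundant transcripts of the prostate in both groups. Its FPKM (reads counted on the gene divided by its length and by the depth of the library) was 4961, 7804 and 6897 in the CON mice, where it ranked 9, 5 and 6 among all genes. In the T + E2 mice it was 9748, 12070 and 9762, with ranks 5, 4 and 5. Spink1 was thus within the first 10 genes by this measure in each mouse.

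Spink5 encodes LEKTI, a long precursor that is cut into many fragments and in the skin restrains the kallikrein-related proteases KLK5, KLK7 and KLK14 that loosen the cornified layer. The gene (ENSMUSG00000055561) lies on chromosome 18 at 43963235 to 44022501, plus strand. Its level was 826.1, 1538 and 675 CPM in the CON mice against 3337, 4634 and 4379 CPM in the T + E2 mice. Every T + E2 mouse was above every CON mouse, the lowest of them 2.17 times the highest CON mouse. The means were 1013 ± 460.9 and 4117 ± 687.5 CPM (SD, n = 3 each), with a log2 fold change of 2.02, a standard error of 0.30 and an adjusted p of 0.00306 (edgeR).

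The spread of Spink5 within the CON group came from CON replicate 2, the mouse with seminal vesicle transcripts, whose level was 2.05 times the mean of the other CON mice. Without CON replicate 2 the log2 fold change of Spink5 was 2.45, and without both replicates numbered 2 it was 2.36 with an adjusted p of 0.00266 (edgeR), so the rise was as large without these libraries. By rank of FPKM, Spink5 moved from places 158, 103 and 209 among all genes in the CON mice to places 53, 40 and 36 in the T + E2 mice.

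Spink8 encodes a single-domain inhibitor described from the mouse epididymis, with the long second cysteine gap shown above. The gene (ENSMUSG00000050074) lies on chromosome 9 at 109812280 to 109826633, plus strand, away from the other family members. Its level was 24.94, 17.19 and 25.19 CPM in the CON mice against 52.73, 50.9 and 45.8 CPM in the T + E2 mice. The groups did not overlap, the T + E2 mice lay close together, and here CON replicate 2 was the lowest mouse, at 0.686 times the mean of the other CON mice. The means were 22.44 ± 4.549 and 49.81 ± 3.593 CPM (SD, n = 3 each), with a log2 fold change of 1.15, a standard error of 0.15 and an adjusted p of 0.00186 (edgeR). The call depended on CON replicate 2. Without that mouse the log2 fold change was 0.99 and without both replicates numbered 2 it was 0.97, just under the required 1, with adjusted p-values of 0.00186 and 0.00948.

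Spink11 encodes another small inhibitor described from the epididymis, and in the fit of all mice it had the largest change of the family. Without CON replicate 2 the change of Spinkl was larger, as given below. The gene (ENSMUSG00000073573) lies on chromosome 18 at 44190045 to 44196177, minus strand. In the CON mice 5, 15 and 12 reads were counted on it, and in the T + E2 mice 1017, 2395 and 1363. Scaled for depth this was 0.3308, 0.9841 and 0.7538 CPM against 70.29, 145.7 and 90.87 CPM. The gene was close to the detection limit in the CON group and well expressed in each T + E2 mouse, the lowest of which had 71.4 times the level of the highest CON mouse. The means were 0.6896 ± 0.3314 and 102.3 ± 38.95 CPM (SD, n = 3 each), with a log2 fold change of 7.19, a standard error of 0.41 and an adjusted p of 3.06e-05 (edgeR). By size of the rise it took place 19 among the 15580 tested genes. Without both replicates numbered 2 the log2 fold change was 7.18 and the adjusted p 0.000305.

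**Figure D2:**
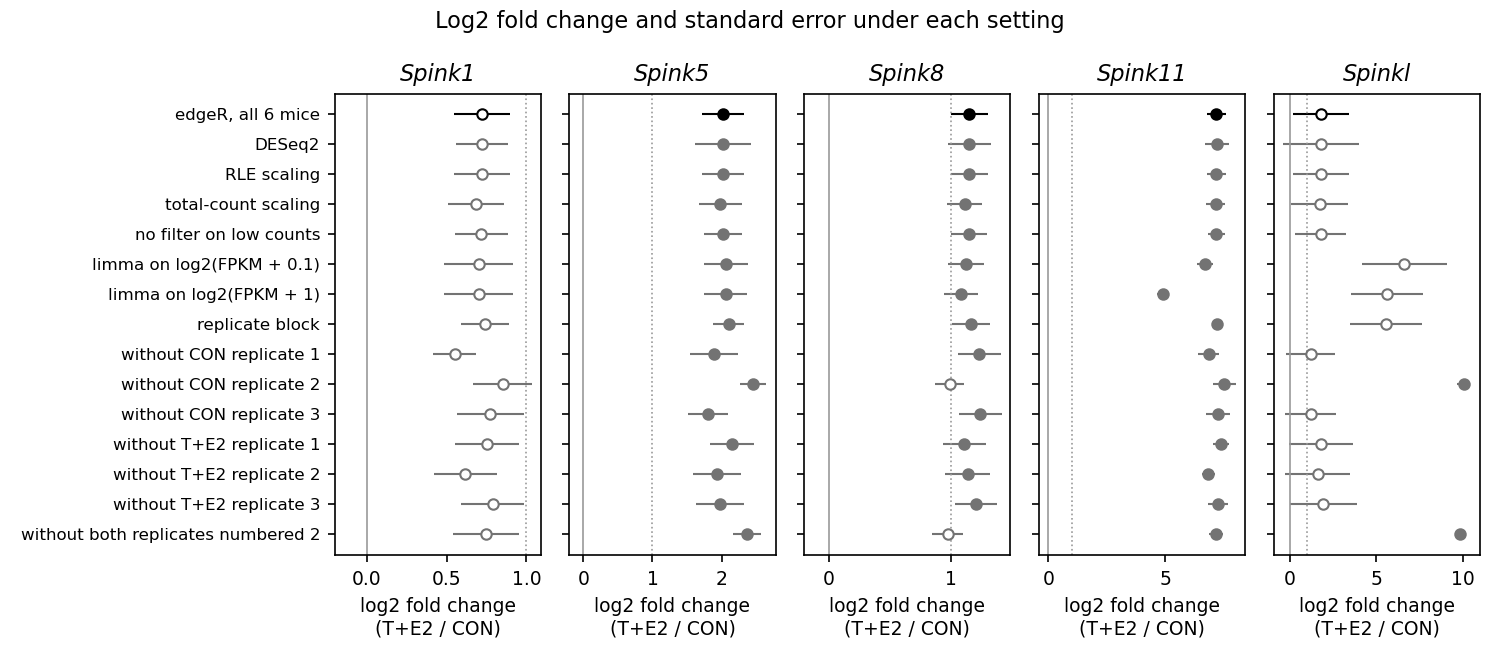
Log2 fold change (T+E2 over CON) with its standard error for Spink1, Spink5, Spink8, Spink11 and Spinkl under each setting, one row per setting and one panel per gene. Filled points were called, open points were not, the dotted line marks a log2 fold change of 1, and the horizontal scales differ between panels. Among the 14 alternatives drawn, which all keep the fold threshold, Spink5 and Spink11 were called in 14, Spink8 in 12, Spink1 in 0, and Spinkl in the 2 that left out CON replicate 2. With no fold threshold Spink1 passes as well in the edgeR fit of all 6 mice, but not in every alternative.

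The remaining 3 genes were at the limit of detection and were not tested. Spink2, which encodes an acrosin inhibitor of sperm (chromosome 5, 77205107 to 77211471, minus strand), had 4 counts in CON replicate 3, 4 in T + E2 replicate 3 and 0 in the other mice. For Spink10 (chromosome 18, 62548911 to 62661366, plus strand) 1, 0 and 1 counts were found in the CON mice against 0, 1 and 2 in the T + E2 mice. Spink12 (chromosome 18, 44104407 to 44108543, plus strand) had 3 counts in T + E2 replicate 2 and 0 elsewhere. A difference between the groups was not detectable for any of them at this depth. The few counts on Spink10 are uncertain besides, because its gene overlaps Spink13 by 60536 bases and Spink7 by 4134 bases on the opposite strand, and its transcript shares stretches of at least 100 bases at 90% identity or more with transcripts of 137 other genes. The other members shared no such stretch with any gene.

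Within the family Spink1 made up most of the FPKM in both groups. By counts, which are not divided by length, Spink5 came close to it in the T + E2 group and was above it in replicate 3 (65688 against 61036 counts). The 7 genes together took 0.296, 0.489 and 0.361% of the reads in the CON mice against 0.742, 0.989 and 0.869% in the T + E2 mice. Spink1 accounted for 91.1 to 97.7% of the FPKM of all Spink genes in the CON mice against 87.6 to 89.4% in the T + E2 mice. The ratio of Spink1 to Spink5 in FPKM was 28.2, 23.6 and 49.2 in the CON mice against 14.6, 12.5 and 10.5 in the T + E2 mice, with no overlap between the groups. Among the tested members the order by mean FPKM in the CON group was Spink1 (6554 ± 1452), Spink5 (215.4 ± 100.9), Spink8 (16.42 ± 3.169) and Spink11 (0.265 ± 0.1286). In the T + E2 group Spink1 (10530 ± 1334) and Spink5 (851.7 ± 161.3) kept their places, while Spink11 (38.41 ± 15) and Spink8 (35.51 ± 1.719) lay within their spread of each other, which holds only for the lengths used in the deposited values. Spinkl, which is not a member, had a mean FPKM of 466.2 ± 105.1 in the T + E2 group, between Spink5 and Spink11. Its CON mean of 140 ± 241.7 came from replicate 2.

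The level per length depends on the length used. The deposited FPKM imply 422 bases for Spink1, 1383 for Spink8 and 2637 for Spink11, whereas the annotated transcripts have 729, 768 and 746 bases, and for Spink5 both are 4785. With the annotated lengths the mean FPKM in the T + E2 group would be 6090 ± 774 for Spink1, 136 ± 53 for Spink11 and 64 ± 3.09 for Spink8 (SD, n = 3 each), so that Spink11 would lie above Spink8 in every T + E2 mouse and Spink1 would still lie above Spink5. The rank of Spink1 among all genes and its share of the family FPKM also rest on the deposited lengths. The comparison of mice within a gene does not change.

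The deposited table held 6 further Spink genes, of which Spinkl alone could be tested. It encodes a Kazal-like protein known from the secretion of the seminal vesicle (ENSMUSG00000053729, chromosome 18, 44166358 to 44175073, minus strand), with a second cysteine gap of 8 residues. Its counts were 2, 3689 and 6 in the CON mice against 3872, 5736 and 3365 in the T + E2 mice. In CPM this was 0.1323, 242 and 0.3769 against 267.6, 348.8 and 224.3, so that CON replicate 2 lay between the T + E2 mice and the other CON mice were close to 0. Over all 6 mice the log2 fold change was 1.79 with a standard error of 1.62 and an adjusted p of 0.47 (edgeR), and Spinkl was not called. Without CON replicate 2 it was 10.04 with a standard error of 0.39 and an adjusted p of 2.7e-05, and without both replicates numbered 2 it was 9.85 with an adjusted p of 0.000137. In both of these fits Spinkl had enough reads to be tested only through the T + E2 group, so a call could only put it higher.

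In the CON group the mouse with Spinkl was the mouse with seminal vesicle transcripts, whereas the T + E2 mice had Spinkl with and without them. T + E2 replicates 1 and 3 had 267.6 and 224.3 CPM of Spinkl beside 4.01 and 1.67 CPM for the whole seminal vesicle list, while CON replicate 2 had 242 CPM of Spinkl beside 10300 CPM for the list. Among the CON mice, CON replicate 2 was also the highest for Spink1, Spink5 and Spink11 and the lowest for Spink8, and among the T + E2 mice replicate 2 was the highest for Spink1, Spink5, Spink11 and Spinkl. The part of seminal vesicle tissue in these levels was not tested beyond leaving out the libraries.

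**Figure D3:**
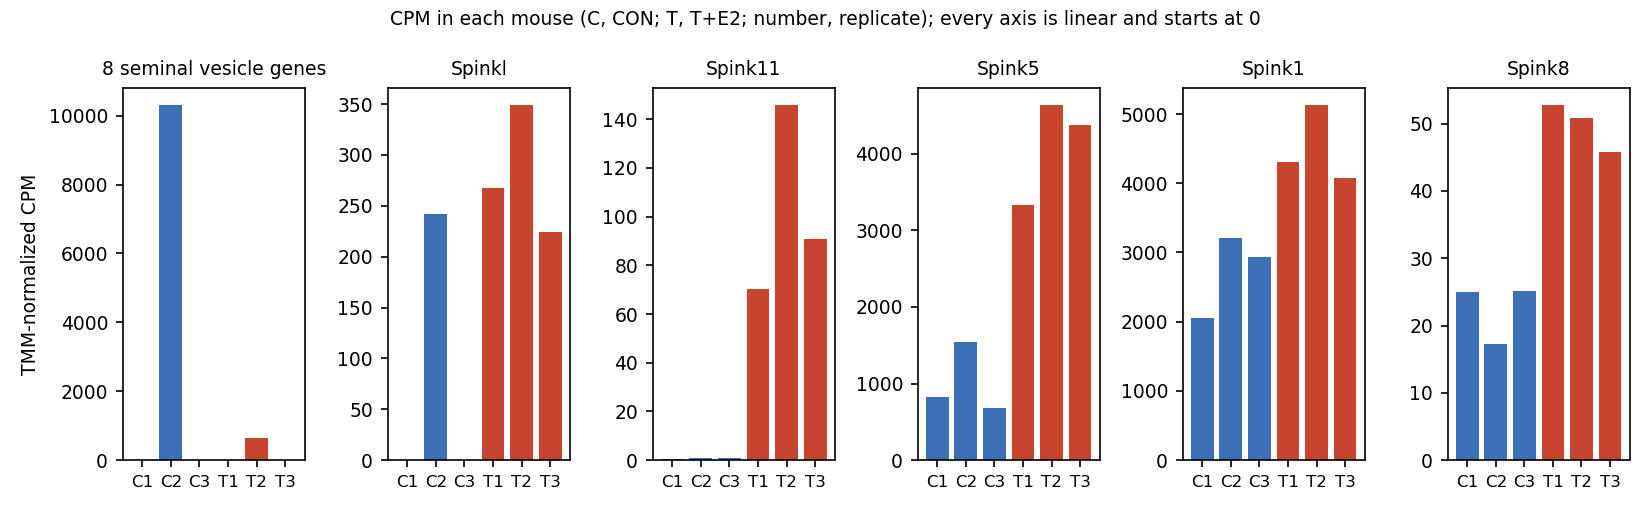
TMM-normalized CPM in each mouse (C1 to C3, CON; T1 to T3, T+E2) of the summed 8 seminal vesicle genes and of Spinkl, Spink11, Spink5, Spink1 and Spink8, each panel on its own linear axis from 0. The seminal vesicle sum stands at 10300 in C2 and 642 in T2 and is at most 4.1 elsewhere, whereas Spinkl is high in C2 and in all 3 T+E2 mice and Spink11 is near 0 in the 3 CON mice.

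The other 5 Spink genes were at or near 0. Spink14, which was not tested, had 2, 3 and 1 counts in the CON mice against 5, 9 and 7 in the T + E2 mice. Spink4, a gene of intestinal goblet cells, had 0 in every CON mouse and 4, 3 and 2 in the T + E2 mice. Spink13 had 3 counts in T + E2 replicate 1 alone, and Spink6 and Spink7 were listed at 0 throughout.

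Several of these genes sit next to each other. Measured between the lower coordinates of the genes, Spink5 lies from Spink1 at 235.2 kb, Spink14 at 299.8, Spink6 at 343.3, Spink12 at 376.3, Spinkl at 438.3 and Spink11 at 462 kb. Levels did not follow position along this stretch. Silent or nearly silent genes (Spink14, Spink6 and Spink12) lay between Spink5 and Spinkl, and Scgb3a2, Gm94, Gm37797 and Gm10542 in the same stretch had no counts in any mouse. Of 43 neighbouring genes within 200 kb of a member, Spinkl among them, 15 were tested. Of these 0 were called, against 7.64% of all tested genes, with a median log2 fold change of -0.314 (edgeR). Spinkl was called only without CON replicate 2, as given above. The adjusted p alone was under 0.05 for 4 of the 15, and for 19.6% of all tested genes. The 4 were Dcp2 (0.40), Igfbp7 (-0.36), Cdc25a (-0.42) and Nme6 (-0.78, log2 fold change), named after their values were seen. Nme6 and Cdc25a lie near Spink8 and were lower in the T + E2 group, the opposite direction to Spink8.

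**Figure D4:**
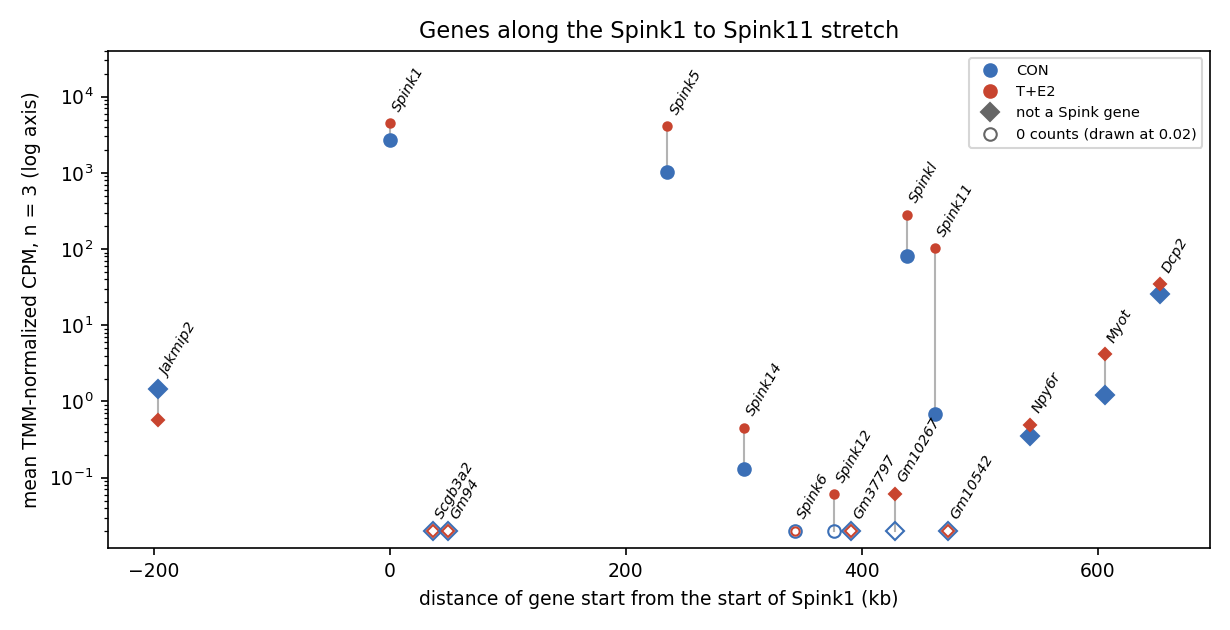
Mean TMM-normalized CPM (log axis, n = 3 per group) of the genes along the stretch from 200 kb before Spink1 to 200 kb after Spink11, against the distance in kb between the lower coordinates of each gene and of Spink1, with CON in blue, T+E2 in red and diamonds for genes outside the Spink family. Spink1, Spink5, Spinkl and Spink11 reach 102.3 CPM or more in the T+E2 group, with genes at or near 0 between them, and the CON mean of Spinkl (80.84) comes from replicate 2.

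The proteases that these inhibitors are best known to act on had few or no reads in these prostates. Of 16 digestive serine proteases 12 had no counts, among them trypsin gene Prss1, and Prss2 had 1, 1 and 0 counts in the CON mice against 3, 2 and 4 in the T + E2 mice. In this list 2 genes were tested and 1 was called, against 7.64% of all tested genes. This was the pancreatic elastase Cela2a, with 0 counts in every CON mouse and 33, 31 and 18 in the T + E2 mice. It had enough reads to be tested only through the T + E2 group, so a call could only put it higher. Of the 12 kallikrein-related proteases Klk4 to Klk15, which include the targets of LEKTI in skin, only Klk8 was tested and it showed no detectable difference (log2 fold change 0.04 ± 0.29, SE, adjusted p 0.943, edgeR). Klk5 had no counts, Klk7 had 1 count in T + E2 replicate 3, and Klk14 had 0, 0 and 2 counts in the CON mice against 8, 3 and 4 in the T + E2 mice. Acrosin (Acr), the target of Spink2, had 2, 4 and 5 counts in the CON mice against 0, 2 and 0 in the T + E2 mice.

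Membrane-bound and secreted epithelial serine proteases were more frequent. Of 19 listed genes 12 were tested, 3 were called higher and 0 lower, with a median log2 fold change of 0.309. Over all tested genes 4.27% were called higher and 3.38% lower. Tmprss4, a membrane-anchored protease, rose from 5.373 ± 1.081 to 24.63 ± 7.917 CPM (SD, n = 3 each), with an adjusted p of 0.000916 (edgeR). Prss27 rose by a log2 fold change of 2.86 (SE 0.41, adjusted p 0.00251, edgeR) and Prss22 by 1.94 (SE 0.39, adjusted p 0.0114, edgeR). Both were under 1 CPM in the CON mice and had enough reads to be tested only through the T + E2 group. Prss22 was not called without both replicates numbered 2 (2.04, adjusted p 0.0708).

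Of 5 receptors that serine proteases or Spink1 can act on, 4 were tested and 0 were called, while 2 had an adjusted p under 0.05. Over all tested genes 7.64% were called and 19.6% had an adjusted p under 0.05. With 4 tested genes these counts do not set the list apart. The protease-activated receptor F2rl1 had 27.78, 29.92 and 28.02 CPM in the CON mice against 39.53, 43.79 and 44.53 CPM in the T + E2 mice, a log2 fold change of 0.58 (SE 0.09, adjusted p 0.0038, edgeR). Egfr, the receptor for epidermal growth factor, to which Spink1 has been reported to bind, had 56.23, 51.3 and 47.93 CPM against 62.89, 76.87 and 69.4 CPM, a log2 fold change of 0.43 (SE 0.11, adjusted p 0.0288). Neither overlapped between the groups. The T + E2 mice also lay above the CON mice for 20.1% of all tested genes, and both changes were under the required 2-fold.

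Genes with related domains and Kunitz-type inhibitors were counted in the same way. Among 23 other genes with Kazal or follistatin-type domains, which mostly encode matrix proteins and growth factor binders, 0 were called higher and 1 was called lower, and the median log2 fold change was -0.139. The share called, 1 of 23, can be read against 7.64% of all tested genes, and by adjusted p alone it was 5 of 23 against 19.6%. The gene that fell was Tmeff2, a membrane protein with follistatin-type modules, from 9.989, 10.04 and 7.412 CPM in the CON mice to 2.488, 4.439 and 4.2 CPM in the T + E2 mice (log2 fold change -1.30, SE 0.25, adjusted p 0.0101, edgeR). Without both replicates numbered 2 its log2 fold change was -1.38 and the adjusted p 0.0605, so that it was no longer called. Of 12 Kunitz-type inhibitors, which block the same class of proteases with another fold, 8 were tested. At the 2-fold limit 0 were called, against 7.64% of all tested genes, with a median log2 fold change of 0.293. Spint2, the inhibitor of membrane-anchored serine proteases, went from 655.6 ± 60.97 to 1211 ± 84.47 CPM (SD, n = 3 each), a log2 fold change of 0.89 with an adjusted p of 0.00139. Whether the Spink genes differed from these families was not tested.

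Markers of tissues in which Spink genes are best known moved as follows, and their part in the rise of the Spink genes was not tested. Calls in these short lists can be read against 4.27% called higher and 3.38% called lower over all tested genes. For the epididymis 12 of 20 listed genes, including the defining Lcn5, Lcn8, Crisp4 and Gpx5, were at 0 in every mouse. The sum of the list was 0.331 to 1.31 CPM in the CON group and 22.4 to 29 CPM in the T + E2 group. Adam7 and Eppin were called higher. Both had enough reads to be tested only through the T + E2 group, so calls could only put them higher. The sum of 12 pancreatic acinar genes was 20.8 to 43.2 CPM in the CON group and 17.2 to 17.8 CPM in the T + E2 group, with 5 genes including Cpa1, Pnlip and Ptf1a at 0. This sum was mostly Pnliprp1, a lipase-related gene, which fell from 32.53 to 10.65 CPM (log2 fold change -1.61). The other tested genes of the list, Cela2a and the colipase gene Clps (0.434 to 4.684 CPM, log2 fold change 3.41), were called higher. Cela2a and Clps also had enough reads to be tested only through the T + E2 group. The sum of 10 genes of stratified epithelium, the usual site of LEKTI, was 38.1 to 57.7 CPM in the CON group. In the T + E2 group it was 54.9 to 87.3 CPM, so the groups overlapped. Of 5 tested genes 0 were called, a count too small to set the list apart from all tested genes. The highest sum was that of T + E2 replicate 2, with 388 counts of Sprr1a against 43 and 38 in the other T + E2 mice. That mouse had 123 counts of Ivl against 0 and 2, whereas Krt4 was highest in replicate 3 (830 against 432 and 582). Urothelial markers went from 423 to 642 CPM up to 1370 to 1700 CPM, and Upk1a made up most of this sum. Of 4 tested genes 2 were called higher, Upk1a (log2 fold change 1.80) and Upk2 (2.20). Upk2, with 12, 14 and 10 counts in the CON mice, also had enough reads to be tested only through the T + E2 group. T + E2 replicate 2, the T + E2 mouse with seminal vesicle transcripts, also stood apart for other urothelial genes, with 99 counts of Upk3a against 5 and 3 in the other T + E2 mice, 120 of Krt20 against 6 and 1, and 145 of Upk3b against 30 and 12. Testis germ cell markers summed to 5.89 to 6.56 CPM and 13.7 to 19.3 CPM, of which most was Acrv1, an acrosomal protein gene (5.039 to 15.23 CPM, log2 fold change 1.59, called). Prm2 and Tnp1 were at 0, and Prm1 and Tnp2 had at most 3 counts in any mouse.

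The genes whose levels over the 6 mice were most like those of the called members were found by the root mean square difference of centred log2 CPM. For Spink5 the closest were Wisp2 (0.195), Clca3a1 (0.196) and 5430419D17Rik (0.196). The closest to Spink8 were Cilp (0.0567), Pla1a (0.0995) and Pkdrej (0.107). Spink11 had no equally close partner, with Wfdc8 at 0.583, Ugt2b35 at 0.62 and Eppin at 0.647. Wfdc8 and Eppin encode protease inhibitors with WAP domains of the male tract, Eppin also carrying a Kunitz domain. Wfdc8 rose from a mean of 0.3452 to 96 CPM (log2 fold change 8.08, SE 0.14) and Eppin from 0.1484 to 16.59 CPM (log2 fold change 6.71, SE 0.48). Both had enough reads to be tested only through the T + E2 group. Because the genes were picked for following a called member over the 6 mice, their rise follows from the choice and is no separate support. These likenesses rest on 6 mice in 2 groups and are a description.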

How the data were processed

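RNA was isolated from prostates and sequenced from paired-end libraries, 3 mice per group, with the groups taken from the sample labels. The authors deposited whole-number counts of reads per gene without normalization, and FPKM values, whose ratio to the counts is fixed by 1 length per gene and by library depth. The submitters' processing notes name TopHat, Bowtie2 and HTSeq. The annotation and whether counting used the strand are not given in the sources used here, so reads from genes that overlap on opposite strands cannot be assigned with certainty. Coordinates are those of the deposited table on build GRCm38, where 34267 of 34745 gene identifiers occurred in GENCODE M21 and 27699 of them had the same start and end.

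For the comparison of groups edgeR 4.0.16 (R 4.3.3) was applied to the counts. After filterByExpr (minimum count 10, minimum total 15) the libraries were scaled by TMM and compared by the quasi-likelihood test over all 15580 genes, two-sided, with Benjamini-Hochberg adjustment. A gene was called when its adjusted p was below 0.05 and its log2 fold change exceeded 1 in either direction. A gene low in 1 group could pass the filter through the other group alone, and a call could then only be higher in that other group. The standard error was computed as the ratio of the log2 fold change to the root of F. Log2 CPM for likeness between genes used a prior count of 2. An exact permutation test with 3 mice against 3 cannot give a p below 0.1 and was not used. P-values measure the spread between these mice, and limits cover counting error only, since reads carry no molecular identifiers.

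Alternatives were DESeq2 1.42.0, RLE and total-count scaling, no filter, no fold threshold, limma 3.58.1 on log2(FPKM + 0.1) or log2(FPKM + 1) for genes whose FPKM reached 0.1 in 3 mice, a replicate block, each mouse left out, and both replicates numbered 2 left out. The last was chosen after seeing the data. Mice with the same number were different animals whose deviations correlated by -0.0516, 0.0275 and 0.0463, so the numbers were not taken to pair them.

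The members and gene lists were chosen with earlier results of these data known. Named in the text are all Spink genes, up to 4 called genes with the largest change from each list, the known targets and partners Prss1, Prss2, Klk5, Klk7, Klk14, Egfr, F2rl1 and Acr, and for each called member the 3 most similar genes, besides genes said to be named after their values were seen. Klk8, Spint2 and further marker genes were also named after their values were seen. Coding sequences came from GENCODE M21 transcripts, and similar transcripts were sought with BLAST 2.17.0+. Python 3.11.15 and matplotlib 3.10.9 were used for the plots.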

Additional observations from a re-analysis of the deposited data

How the results depend on the processing

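In the 14 alternatives that kept the fold threshold, Spink5 and Spink11 were called in 14, with log2 fold changes of 1.80 to 2.45 and 4.90 to 7.52, and Spink1 in 0, with 0.55 to 0.85. With no fold threshold Spink1 was called too. Leaving out 1 mouse gave 1.80 to 2.45 for Spink5, 6.85 to 7.52 for Spink11, 0.99 to 1.24 for Spink8 and 1.21 to 10.04 for Spinkl. Without both replicates numbered 2, an alternative chosen after seeing the data, Spink8 was at 0.97 and not called and Spinkl at 9.85 and called. With a replicate block the values were 0.74 for Spink1, 2.10 for Spink5, 1.17 for Spink8, 7.20 for Spink11 and 5.57 for Spinkl (adjusted p 0.132, edgeR), and the block changed no call of these 5 genes. The log2 fold change of Spinkl was 6.63 and 5.61 under limma with pseudocounts of 0.1 and 1, also not called.

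The number of called members was 3, 2 to 3 when 1 mouse was left out and 4 with no fold threshold. Among other Spink genes 0 were called, but 2 under limma with a pseudocount of 0.1 (Spink4 and Spink14), 0 to 1 when 1 mouse was left out and 1 without both replicates numbered 2 (Spinkl). For neighbouring genes the count of 0 became 1 under that limma fit, 0 to 1 with 1 mouse left out, 2 without both replicates numbered 2 (Spinkl and Nme6) and 4 with no fold threshold. For the other Kazal-domain genes the count of 1 became 2 with DESeq2, with total-count scaling and with limma at 0.1, 0 with limma at 1, 1 to 3 with 1 mouse left out and 5 with no fold threshold. The digestive proteases went from 1 to 0 with limma at 1, the receptors from 0 to 2 and the Kunitz inhibitors from 0 to 3 with no fold threshold, and the latter to 0 to 1 with 1 mouse left out (Tfpi). The cause of these shifts was not tested, apart from the change that the setting itself makes. Over all genes 1191 were called, 561 with limma at 1 and 3061 with no fold threshold.

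Depth limits what can be said of Spink2, Spink10, Spink12, Spink4, Spink13 and Spink14, which had at most 9 counts in any mouse, and of the CON level of Spink11, which rests on 5 to 15 counts.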
